A study of Mus musculus with 6 samples.

Results

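The 49 genes described here encode the ligands, receptors, antagonists and Smad proteins of the TGF-beta and BMP family. They were chosen by symbol, as the rows of the gene table whose Ensembl identifiers carry these symbols in GENCODE M21 (mouse build GRCm38), and make up 49 of the 54532 genes listed. All 49 were found. RNA-Seq of epididymal fat, the visceral depot beside the epididymis, compared 3 libraries from male C57BL/6J mice fed a normal diet (ND, 4.5% fat) with 3 libraries from mice fed a high-fat diet (HFD, 60% fat). The diets started at 4 weeks of age and ran for 16 weeks, so the HFD-fed mice were 20 weeks old, and the labels of all 6 libraries say that no treatment was given. The samples were fat tissue not separated into cell types, in which adipocytes, macrophages, vessels and fibroblasts contribute RNA together. The sources do not say whether a library holds 1 mouse or a pool, so p-values measure the spread between these libraries only.

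Ligands of this family are secreted dimers that bind a type II receptor kinase, which then switches on a type I receptor kinase. TGF-beta and activin ligands mostly act through Smad2 and Smad3, and BMP ligands through Smad1, Smad5 and Smad9. The phosphorylated Smads join Smad4 and enter the nucleus, Smad6 and Smad7 block the pathway, and secreted antagonists such as noggin and follistatin trap ligands. In fat the family is known for steering progenitors toward or away from adipocytes, for fibrosis, and, through the type I receptor ALK7, for restraining lipolysis.

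Count totals ran from 16996896 to 18859320 per library, and the floor of 3 counts used here stands for 0.149 to 0.180 CPM (counts scaled to the TMM-adjusted library size), covering counting error only. Over the tested genes (genes are no replicates), log2 CPM correlated at Pearson's r = 0.966 to 0.982 among ND libraries, 0.953 to 0.980 among HFD libraries and 0.884 to 0.953 between diets. The label fat was borne out by adipocyte markers at 5631 to 32315 summed CPM, with summed epididymis markers at 1.64 CPM or less. The third ND library stood apart, with counts for 23712 genes against 21735 to 22703 in the other libraries. Its 7 epithelial markers summed to 138 CPM, against 9.15 to 12.7 CPM in the other libraries, with Foxj1 at 54.2 CPM and Epcam at 37.4 CPM. The exons of 14 tested members overlap a gene on the other strand, among them Acvr1c (with Gm13544), Eng (Fpgs), Chrd (Thpo), Acvr2a (Orc4), Fstl3 (Prss57) and Bmp6 (Txndc5), and whether the counting used strand is not stated, so such reads cannot be told apart.

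Of the 43 members with enough counts to test, 5 were higher on HFD (Tgfb1, Bmp3, Gdf3, Gdf15 and Tgfbr1) and 4 were lower (Gdf10, Acvr1c, Smad5 and Smad9) at an adjusted p under 0.05 by edgeR's quasi-likelihood test with Benjamini-Hochberg adjustment over all 15751 genes tested. These 9 are 20.9% of the tested members, beside 15.9% of all genes called in either direction, 9.85% called higher and 6.04% called lower. The CPM values of the diets did not overlap in 19 of the 43 members, a share to be read against 40.9% of all genes. By DESeq2, which called 20.7% of all genes it tested, 12 members passed, the added ones being Mstn, Gdf11 and Bmpr1b. The median log2 fold change (HFD minus ND) of the tested members was -0.11, with 17 above 0 and 26 below, beside a median of 0.0074 over all genes tested. The calls lay among TGF-beta, BMP and GDF ligands, type I receptors and receptor-regulated Smads. No activin, inhibin or related ligand (4 tested), type II receptor (4), co-receptor (2), antagonist (4), common Smad (1) or inhibitory Smad (2) passed. With so few tested per role, and 15.9% of all genes called, this split by role is not read as a pattern. Where single libraries were left out, 1 member was called without the first ND, the third ND or the first HFD library. Of all genes those fits called 3.04%, 6.24% and 2.93%. Without the second ND library 3 members were called, beside 3.63% of all genes. Without the third HFD library 8 were called (12.9% of all genes), and without the second HFD library 11 (24.2%). On log2(FPKM + 1) without a filter Gdf3 alone passed, beside 2.27% of all genes.

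**Figure D1:**
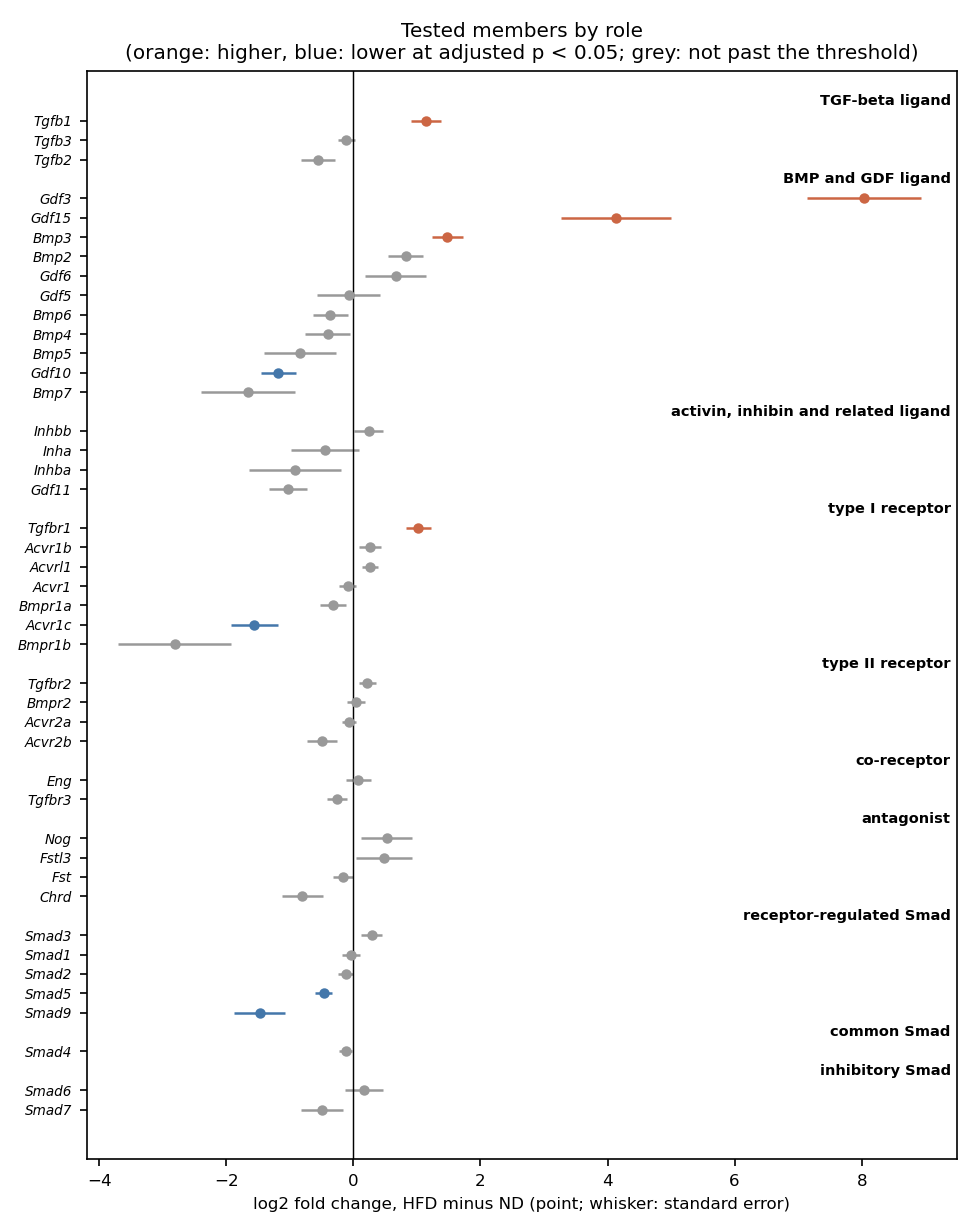
Log2 fold change (HFD minus ND, x axis) of the 43 tested members, grouped by role and ordered by size within a role; points are edgeR estimates, whiskers standard errors, and colour marks an adjusted p under 0.05. Gdf3 (8.03) and Gdf15 (4.13) lie far to the right of the other members, and most receptors and Smads lie within 1 log2 unit of 0.

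Among the TGF-beta ligands, Tgfb1, the isoform best known for fibrosis and immune control, was higher on HFD and Tgfb2 and Tgfb3 did not pass. Tgfb1 (ENSMUSG00000002603, chr7:25687002-25705077) measured 66.2, 62.7 and 56.3 CPM in the ND libraries and 129, 96.1 and 185 CPM in the HFD libraries. Every HFD library stood above every ND library, replicate 3 highest of all. The mean rose from 61.7 ± 5.0 to 137 ± 45.0 CPM (SD, n = 3), 2.22-fold (log2 fold change 1.15, SE 0.23, edgeR adjusted p = 0.0216). The call was lost without any 1 ND library or without the first HFD library, at adjusted p = 0.0734 to 0.0789. Tgfb2 measured 7.12, 6.14 and 11.2 CPM under ND, against 5.07, 5.47 and 6.04 CPM under HFD. The diets did not overlap, yet the difference did not pass (log2 fold change -0.56, SE 0.27, edgeR adjusted p = 0.188) and was -0.30 without the third ND library. Tgfb3 gave 33.1 ± 3.17 CPM under ND, against 30.6 ± 3.27 CPM under HFD (SD, n = 3), with overlapping libraries.

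The BMP and GDF ligands held the largest changes among the members: 3 of the 11 tested rose and 1 fell. Of all genes, 9.85% were called higher and 6.04% lower. Gdf3, a ligand known to signal through ALK7, was close to undetected on ND. Gdf3 (ENSMUSG00000030117, chr6:122605403-122610087) had 0, 3 and 0 counts under ND, against 270, 122 and 449 counts under HFD. The first and the third ND library were at 0 and the second at the floor, while the HFD libraries reached 14.7, 7.34 and 25.8 CPM. The 841 HFD counts against 3 ND counts make a ratio of 299, with an exact 95% counting interval of 102 to 1455. That interval leaves out the spread between libraries. The fitted log2 fold change was 8.03 (SE 0.89, edgeR adjusted p = 0.00606). Gdf3 was the 1 member called in all 6 fits that left out a library, at adjusted p = 0.00102 to 0.038.

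Gdf15, a distant family member made by stressed cells that acts on a receptor in the hindbrain, rose as well. Gdf15 (ENSMUSG00000038508, chr8:70629393-70632456) had 6, 26 and 34 counts under ND, against 277, 91 and 726 counts under HFD, or 0.323, 1.51 and 1.69 CPM against 15.1, 5.47 and 41.8 CPM. The HFD libraries were all above the ND libraries but spread widely, the third at several times the second. The fitted change was 17.6-fold (log2 fold change 4.13, SE 0.86, edgeR adjusted p = 0.0230), and the call was lost without any 1 ND library or without the first HFD library (adjusted p = 0.0632 to 0.0815), by limma-voom (adjusted p = 0.0717) and without the filter on low counts (adjusted p = 0.101).

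Bmp3 and Gdf10, close paralogs among the BMPs that are known more for opposing other BMPs than for classical BMP activity, moved in opposite directions. Bmp3 (ENSMUSG00000029335, chr5:98854415-98884396) measured 19.1, 26.5 and 21.7 CPM under ND, against 62.1, 82.4 and 43.2 CPM under HFD. Here the second HFD library was the highest and the third the lowest, still above all ND libraries. Bmp3 rose 2.79-fold (log2 fold change 1.48, SE 0.25, edgeR adjusted p = 0.0127). Without the first ND, the third ND or the first HFD library its adjusted p was 0.0527 to 0.0588. Gdf10 (ENSMUSG00000021943, chr14:33923587-33937983) measured 81.1, 41.9 and 71.6 CPM under ND, against 33.6, 30.7 and 21.5 CPM under HFD. The second ND library came nearest to the HFD libraries, without overlap. Gdf10 was 2.27-fold lower on HFD (log2 fold change -1.18, SE 0.28, edgeR adjusted p = 0.0303), a call lost without the first ND, the third ND, the first HFD or the third HFD library (adjusted p = 0.0587 to 0.102) and with the replicate number as a block (adjusted p = 0.0535).

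The classical BMP ligands did not pass the test. Bmp2, a bone and adipocyte inducer, measured 6.52, 4.11 and 5.92 CPM under ND, against 11.8, 10.6 and 6.96 CPM under HFD. The HFD libraries were all above the ND libraries, the third only narrowly (log2 fold change 0.82, SE 0.28, edgeR adjusted p = 0.0837), and without the third HFD library Bmp2 passed at 1.0 and adjusted p = 0.0388. Bmp4, which commits progenitors to the adipocyte lineage, gave 13.7 ± 5.01 CPM under ND, against 10.4 ± 3.67 CPM under HFD (SD, n = 3) with overlap. Bmp6 gave 49.4 ± 7.67 and 38.4 ± 13.9 CPM (SD, n = 3), also overlapping. Bmp7, linked to brown fat, measured 2.97, 1.04 and 9.4 CPM under ND, against 1.09, 1.74 and 1.44 CPM under HFD. The third ND library, in which the epithelial markers were raised, held 72.1% of its ND counts (log2 fold change -1.66, SE 0.74, edgeR adjusted p = 0.164), and without it the change was -0.53. The part of the epithelial markers in this was not tested. Bmp5, Gdf5 and Gdf6 stayed under 2 CPM in every library, at log2 fold changes of -0.84, -0.07 and 0.67. Bmp8a had 6, 2 and 2 counts under ND, against 1, 1 and 0 counts under HFD, and Bmp8b had 2 counts in all, both in the second HFD library.

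**Figure D2:**
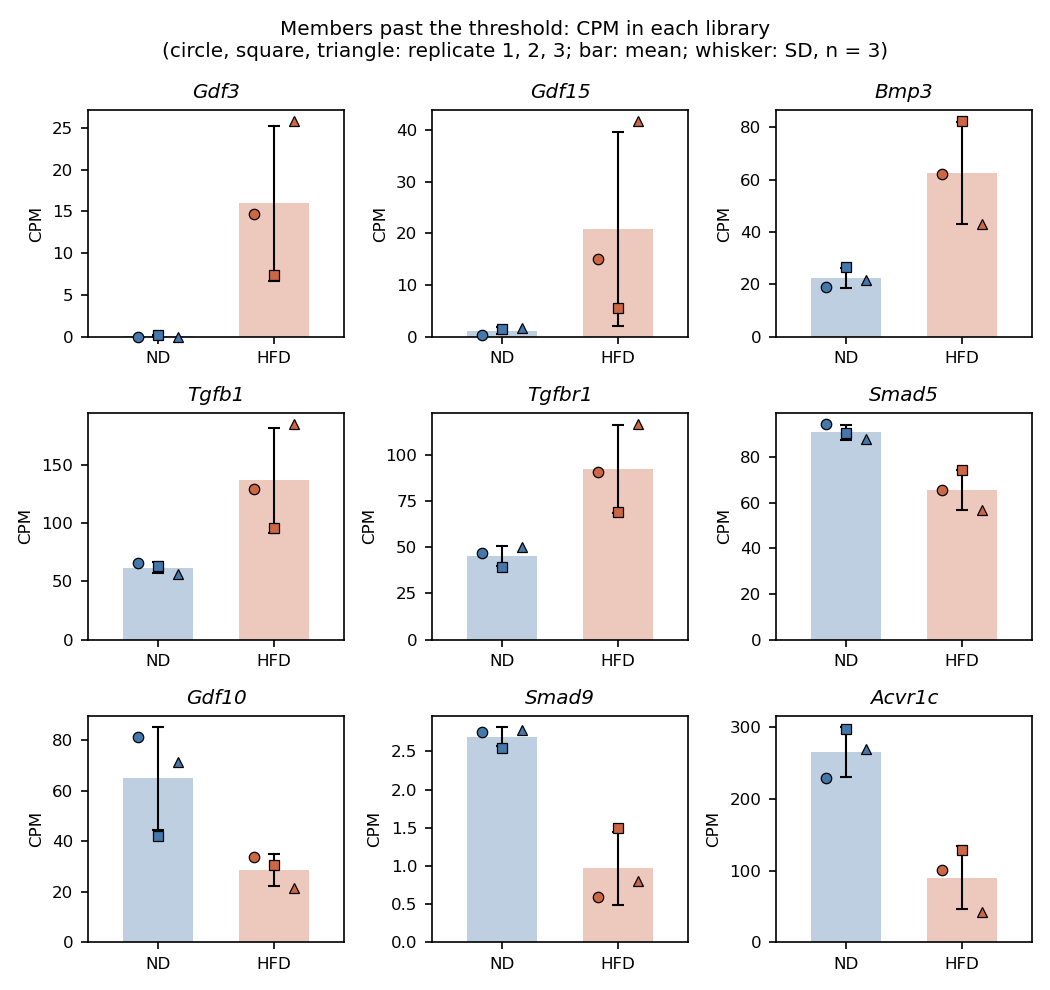
CPM (y axis, from 0) of the 9 members past the threshold in each ND and HFD library; symbols are replicates 1, 2 and 3, bars are means and whiskers SD (n = 3). In none of the 9 panels do the diets overlap, and the spread on HFD is widest for Gdf15, from 5.47 to 41.8 CPM.

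Activins and inhibins, dimers built from the Inhba, Inhbb and Inha subunits, gave no call. Inhbb, the activin B subunit that adipocytes are known to make, measured 62.0, 76.8 and 57.6 CPM under ND, against 82.8, 96.2 and 53.0 CPM under HFD. The third HFD library was below all ND libraries and the other two were above them (log2 fold change 0.24, SE 0.23, edgeR adjusted p = 0.501). Inhba measured 2.97, 1.16 and 7.76 CPM under ND, against 1.04, 1.80 and 3.45 CPM under HFD. Of its ND counts 67.5% lay in the third ND library, and without that library the log2 fold change went from -0.92 to -0.02. Inha averaged 1.0 CPM under ND, against 0.742 CPM under HFD. Gdf11, the closest relative of myostatin, measured 4.69, 5.45 and 4.28 CPM under ND, against 3.0, 1.74 and 2.30 CPM under HFD. The groups did not overlap, and the difference missed the threshold by edgeR (log2 fold change -1.03, SE 0.30, adjusted p = 0.0551) and passed it by DESeq2 (adjusted p = 0.0171). Mstn, which encodes myostatin, had no counts in any ND library, against 6, 10 and 11 counts in the HFD libraries. Too low for edgeR's filter, it was at least 9.61-fold higher on HFD against a floor of 3 counts over the ND group (DESeq2 adjusted p = 0.00516). The 5 skeletal muscle markers summed to 23.0, 66.7 and 31.7 CPM under ND, against 3.76, 7.34 and 4.95 CPM under HFD. Ckm and Myh4 were at 0 in every library, and only 2 of the 5 markers could be tested, of which 1 was called lower. The part of muscle in the Mstn counts was not tested. Nodal (1, 3 and 0 counts on ND, 0 on HFD) and Amh (1, 1 and 7 counts on ND, 5, 7 and 5 on HFD) were too low to test.

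Among the 7 type I receptors, Tgfbr1 rose and Acvr1c fell. Tgfbr1 (ENSMUSG00000007613, chr4:47353222-47414931), which encodes ALK5, the receptor that carries the TGF-beta signal, measured 46.6, 39.5 and 49.8 CPM under ND, against 90.8, 69.3 and 117 CPM under HFD. All HFD libraries were above the ND libraries, in the same order as for Tgfb1. The mean went from 45.3 ± 5.28 to 92.3 ± 23.7 CPM (SD, n = 3), 2.03-fold (log2 fold change 1.02, SE 0.20, edgeR adjusted p = 0.0197), with adjusted p = 0.0535 to 0.0783 without any 1 ND library or without the first HFD library. Acvr1c (ENSMUSG00000026834, chr2:58267453-58357895) encodes ALK7, the receptor for which fat is a main site, and its exons overlap those of Gm13544 on the other strand. Acvr1c measured 229, 298 and 270 CPM under ND, against 100, 129 and 42.3 CPM under HFD. The third HFD library was the lowest and no HFD library came near the ND range. The mean fell from 266 ± 34.6 to 90.4 ± 44.0 CPM (SD, n = 3), and the fitted level was 2.94-fold lower on HFD (log2 fold change -1.56, SE 0.37, edgeR adjusted p = 0.0339). The call was lost without any 1 of the same 4 libraries as for Tgfbr1 (adjusted p = 0.0828 to 0.107) and without the filter on low counts (adjusted p = 0.0782).

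The other type I receptors did not pass. Bmpr1b, a BMP receptor best known from cartilage and the ovary, measured 2.10, 0.927 and 10.3 CPM under ND, against 0.60, 0.662 and 0.633 CPM under HFD. The diets did not overlap, but 79.1% of the ND counts lay in the third ND library (log2 fold change -2.82, SE 0.88, edgeR adjusted p = 0.0707, DESeq2 adjusted p = 0.00462), and without it the change was -1.29 at adjusted p = 0.139. This is the library with the epithelial markers, whose part in the result was not tested. Bmpr1a, the main BMP type I receptor of fat cells, measured 117, 121 and 125 CPM under ND, against 92.2, 126 and 72.4 CPM under HFD. The second HFD library lay above all ND libraries, and leaving it out took the log2 fold change from -0.32 (edgeR adjusted p = 0.296) to -0.55 (adjusted p = 0.0354). Acvrl1, the endothelial receptor ALK1, gave 72.4 ± 9.34 CPM under ND, against 86.6 ± 3.51 CPM under HFD (SD, n = 3), without overlap but short of the threshold (edgeR adjusted p = 0.203). Acvr1 and Acvr1b had log2 fold changes of -0.09 and 0.26.

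No type II receptor or co-receptor passed the test. Tgfbr2, the partner of ALK5, measured 204, 198 and 181 CPM under ND, against 219, 209 and 252 CPM under HFD. The HFD libraries were all higher, by a log2 fold change of 0.22 (SE 0.13, edgeR adjusted p = 0.295). Acvr2b measured 4.04, 4.58 and 4.43 CPM under ND, against 3.0, 3.31 and 2.93 CPM under HFD. Its diets also did not overlap, with a log2 fold change of -0.50 (SE 0.24, edgeR adjusted p = 0.185). Acvr2a and Bmpr2 had log2 fold changes of -0.07 and 0.04. Among the co-receptors, Tgfbr3 (betaglycan, which presents TGF-beta2) gave 138 ± 1.38 CPM under ND, against 116 ± 22.0 CPM under HFD (SD, n = 3), and Eng (endoglin, an endothelial co-receptor) gave 167 ± 21.3 and 176 ± 37.6 CPM. None of the 10 endothelial markers passed, and their median log2 fold change was -0.29.

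No secreted antagonist passed. Chrd, whose product chordin traps BMPs, measured 19.7, 15.6 and 25.4 CPM under ND, against 11.7, 16.1 and 6.96 CPM under HFD. The second HFD library lay inside the ND range (log2 fold change -0.81, SE 0.32, edgeR adjusted p = 0.127), and without it Chrd passed at -1.11 and adjusted p = 0.0384. Fst and Fstl3, which bind activins and myostatin, had log2 fold changes of -0.17 and 0.48, and Nog, which binds BMPs, 0.52. Grem1, another BMP antagonist, had 55, 0 and 32 counts under ND, against 0, 3 and 0 counts under HFD. The ratio of its counts, ND over HFD, was 27.1 with a 95% counting interval of 8.99 to 134, but the second ND library was at 0, so the diets overlapped.

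Of the 5 receptor-regulated Smads tested, 2 were called lower, Smad5 and Smad9, beside 6.04% of all genes called lower. Smad5 (ENSMUSG00000021540, chr13:56703010-56742377) measured 94.5, 90.4 and 88.0 CPM under ND, against 65.7, 74.5 and 56.9 CPM under HFD. The ND libraries lay within a narrow band above all HFD libraries. The mean fell from 91.0 ± 3.30 to 65.7 ± 8.82 CPM (SD, n = 3; log2 fold change -0.47, SE 0.13, edgeR adjusted p = 0.0470). Smad9 (ENSMUSG00000027796, chr3:54755582-54801257) had 51, 44 and 56 counts under ND, against 11, 25 and 14 counts under HFD, or 2.75, 2.55 and 2.79 CPM against 0.60, 1.5 and 0.805 CPM. Every HFD library was again below the ND libraries, the second nearest (log2 fold change -1.48, SE 0.40, edgeR adjusted p = 0.0470). Both calls sat at the threshold. Leaving out any library but the second HFD library ended them, with adjusted p = 0.0687 to 0.156 for Smad5 and 0.0961 to 0.157 for Smad9, and so did the replicate block (adjusted p = 0.0678 and 0.0832) and fitting without the filter on low counts (0.0874 and 0.0738). Smad5 also missed the threshold with unscaled library sizes (adjusted p = 0.0570) and on log2(FPKM + 0.1) (adjusted p = 0.0501). Smad5 shares exon sequence with Gm27301 on the same strand. Smad1, the third BMP Smad, gave 35.8 ± 0.752 CPM under ND, against 34.9 ± 5.83 CPM under HFD (SD, n = 3).

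The remaining Smads did not pass. Smad2 and Smad3, the Smads of TGF-beta and activin, had log2 fold changes of -0.12 and 0.29, and Smad3 passed without the third HFD library (0.43, adjusted p = 0.0472). Smad4, the partner of all of them, measured 62.1, 63.0 and 65.2 CPM under ND, against 56.7, 58.0 and 60.3 CPM under HFD. The diets did not overlap, at a log2 fold change of -0.12 (SE 0.10, edgeR adjusted p = 0.416). Smad6 gave 25.4 ± 1.5 and 28.5 ± 11.4 CPM and Smad7 gave 17.9 ± 7.84 and 12.7 ± 3.04 CPM on ND and HFD (SD, n = 3), each with overlapping libraries.

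Levels between members can be set side by side only per gene length, as FPKM. On ND the order began with Eng at 41.8, Acvr1c at 29.1 and Tgfbr2 at 24.2 FPKM. Eng lay clear of Acvr1c there, while the libraries of Acvr1c and Tgfbr2 overlapped. On HFD it began with Eng at 43.7, Tgfbr2 at 27.8 and Tgfb1 at 27.3 FPKM, the latter 2 overlapping. By mean FPKM, Acvr1c moved from place 2 of the members on ND to place 14 on HFD, at 9.79 FPKM. Tgfb1 moved from place 13, at 12.5 FPKM, to place 3, and Gdf10 from place 11, at 12.7 FPKM, to place 24, at 5.52 FPKM. Gdf3, from 0.0244 to 6.62 FPKM, and Gdf15, from 0.643 to 11.3 FPKM, came to lie among members such as Smad1 (5.60 FPKM on HFD) and Tgfb3 (9.11 FPKM on HFD).

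**Figure D3:**
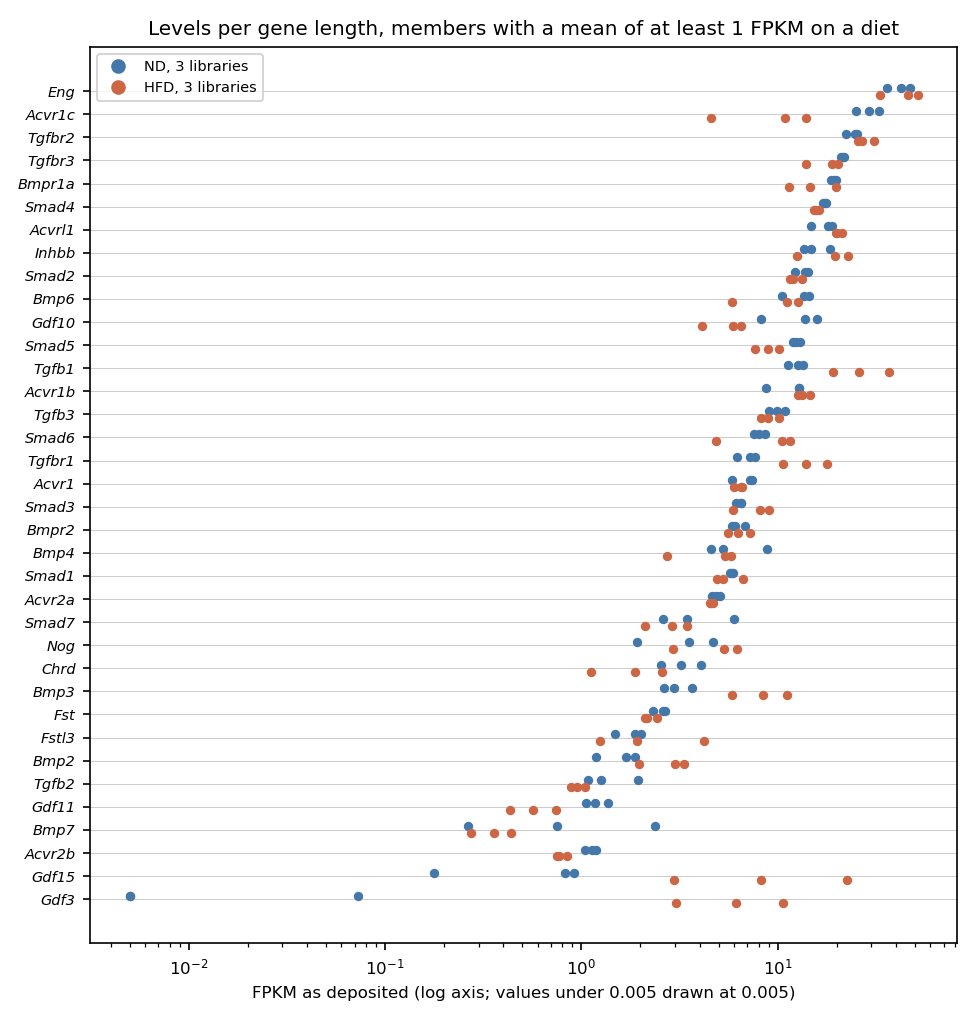
Deposited FPKM (log axis) of members with a mean of at least 1 FPKM on either diet, ordered by the ND mean; each dot is 1 library, blue for ND and orange for HFD. Acvr1c is second on ND (mean 29.1) and its HFD dots (mean 9.79) lie to the left of its ND dots. The HFD dots of Tgfb1, Tgfbr1, Gdf15 and Gdf3 lie to the right of their ND dots.

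Promoter windows of 250 bases before a RefSeq start (GRCm38.p6) were available for 34 of the 49 members (41 windows), among them 7 of the 9 called members. The short motif CAGAC, read as GTCTG on the other strand, known as the contact of Smad3 and Smad4, was in 20 of the 41 windows (48.8%) and in 42.2% of all 32851 windows. The motif GGCGCC (its own reverse complement), known to bind Smads of both branches, was in 7 of 41 (17.1%) and in 9.59% of all windows. Member windows also had more G and C, with a median of 65.2% against 52.4%. The direct repeat bound by PPAR-gamma and its partner, 2 copies of AGGTCA with any 1 base between them, was in none of the 41 and in 11 of all windows, searched on both strands like the others. A match is a description of the letters and no test was run. Of the called members, the window of Tgfb1 and those of Acvr1c held none of these motifs. Windows with no annotated exon and with a match are shown for 2 members that rose (Gdf15, Tgfbr1) and 2 that fell (Smad9, Gdf10), 5′ to 3′ on the strand of the gene, with the match in capitals. The Gdf15 window is chr8:70632457-70632706 (minus strand) with GTCTG 202 bases before the start, and the Tgfbr1 window chr4:47352972-47353221 (plus) with GGCGCC at 233 bases. The Smad9 window is chr3:54755332-54755581 (plus) with GGCGCC at 51 bases, and the Gdf10 window chr14:33923337-33923586 (plus) with CAGAC at 98 bases.
Gdf15: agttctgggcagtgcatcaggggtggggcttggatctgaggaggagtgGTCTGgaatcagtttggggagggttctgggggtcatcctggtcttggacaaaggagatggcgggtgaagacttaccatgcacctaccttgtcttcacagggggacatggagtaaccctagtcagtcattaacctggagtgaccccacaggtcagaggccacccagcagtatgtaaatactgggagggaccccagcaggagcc
Tgfbr1: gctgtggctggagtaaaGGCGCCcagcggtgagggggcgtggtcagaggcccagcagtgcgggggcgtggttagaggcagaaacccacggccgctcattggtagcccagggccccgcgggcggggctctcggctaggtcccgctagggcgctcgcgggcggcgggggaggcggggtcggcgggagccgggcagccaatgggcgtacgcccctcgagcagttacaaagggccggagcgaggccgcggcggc
Smad9: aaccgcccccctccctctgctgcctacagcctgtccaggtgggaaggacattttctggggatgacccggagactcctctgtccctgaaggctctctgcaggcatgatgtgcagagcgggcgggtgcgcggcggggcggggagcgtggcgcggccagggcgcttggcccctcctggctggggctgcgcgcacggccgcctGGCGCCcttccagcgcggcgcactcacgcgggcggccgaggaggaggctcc
Gdf10: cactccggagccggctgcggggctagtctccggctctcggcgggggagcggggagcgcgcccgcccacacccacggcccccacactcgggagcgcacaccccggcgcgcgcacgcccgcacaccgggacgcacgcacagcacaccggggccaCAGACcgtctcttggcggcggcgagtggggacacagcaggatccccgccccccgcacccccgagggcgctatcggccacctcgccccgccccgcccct

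Marker genes of the cells that fat holds moved with diet beside these members. In bulk tissue, fewer cells of a type and less RNA per cell cannot be told apart. Of 10 macrophage markers 6 were higher on HFD and none lower (median log2 fold change 1.53), with summed levels of 1408 to 1510 CPM under ND, against 4024, 3101 and 7229 CPM under HFD. Of 6 markers of lipid-associated macrophages 5 were higher, from 239 to 353 summed CPM on ND to 2759, 1635 and 6366 CPM on HFD. Of 10 adipocyte markers 3 were lower and none higher (median -0.70), summing to 25132 to 32315 CPM under ND, against 10825, 18190 and 5631 CPM under HFD. Cfd supplied much of these sums, and without it the other 9 markers summed to 15252, 16696 and 13421 CPM under ND, against 9667, 15690 and 5469 CPM under HFD, with overlap. Of 8 mural markers 2 were lower (median -0.60), with sums of 973, 855 and 818 CPM under ND, against 572, 631 and 435 CPM under HFD. The 10 progenitor or fibroblast markers and the 10 endothelial markers gave no call. Among the HFD libraries, Gdf3, Gdf15, Tgfb1, Tgfbr1 and the summed macrophage and progenitor or fibroblast markers were highest in the third and lowest in the second, whereas Acvr1c, Bmp3, Smad5 and the summed adipocyte and mural markers were highest in the second and lowest in the third. Gdf10 and Smad9 followed neither order. Gdf10 was highest in the first and lowest in the third, and Smad9 was highest in the second and lowest in the first.

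**Figure D4:**
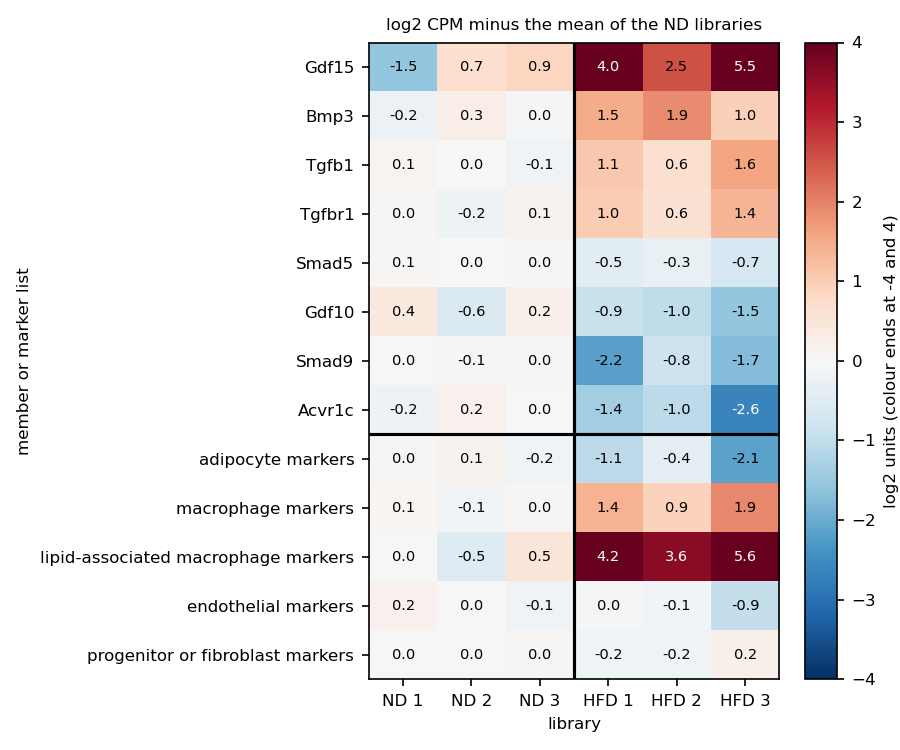
Log2 CPM in each library minus the mean of the ND libraries, for the called members other than Gdf3 (0 in 2 ND libraries) and for 5 marker lists; red is above and blue below the ND mean. In the third HFD library Gdf15, Tgfb1, Tgfbr1 and the macrophage and progenitor or fibroblast lists are at their highest and Acvr1c and the adipocyte list at their lowest.

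Dividing a member's CPM by the geometric mean CPM of a marker list, a description chosen after the values were seen, left some of the called members apart between diets and others not. Acvr1c per unit of the adipocyte list was 0.138, 0.169 and 0.188 on ND and 0.129, 0.105 and 0.115 on HFD, still lower on HFD in every library, also with Cfd left out of the list. Gdf10 per unit of the same list was 0.0488, 0.0238 and 0.0498 on ND and 0.0434, 0.0250 and 0.0582 on HFD, so the diets overlapped. Smad5 and Smad9 overlapped on this scale too, so that 1 of the 4 members called lower stayed apart, with or without Cfd in the list. Per unit of the progenitor or fibroblast list, each of the 4 stayed lower on HFD without overlap. Gdf10 on that list was 0.412, 0.210 and 0.348 on ND and 0.189, 0.173 and 0.0922 on HFD. Per unit of the endothelial list, Smad5 overlapped and the others called lower stayed apart. Bmp3 per unit of the adipocyte list was 0.0115, 0.0150 and 0.0151 on ND and 0.0802, 0.0671 and 0.117 on HFD, apart in the same direction as its CPM. Per unit of the macrophage list Bmp3 overlapped, at 0.310, 0.498 and 0.365 on ND and 0.409, 0.756 and 0.196 on HFD. Tgfb1 and Tgfbr1 stayed higher on HFD, without overlap, per unit of the adipocyte, endothelial and progenitor or fibroblast lists. Per unit of the progenitor or fibroblast list Tgfb1 was 0.336, 0.314 and 0.274 on ND and 0.728, 0.541 and 0.796 on HFD. Against the lipid-associated macrophage list both were lower on HFD. Set against the macrophage list, Tgfb1 and Tgfbr1 were also lower on HFD, without overlap. Tgfb1 per unit of that list was 1.07, 1.18 and 0.947 on ND and 0.852, 0.882 and 0.840 on HFD, and Tgfbr1 was 0.757, 0.741 and 0.838 on ND and 0.598, 0.636 and 0.529 on HFD. Gdf3 stayed higher, at 0, 0.00326 and 0 on ND and 0.0970, 0.0673 and 0.117 on HFD. Gdf15 per unit of the macrophage list was 0.00526, 0.0283 and 0.0284 on ND and 0.0995, 0.0502 and 0.189 on HFD. Against the lipid-associated macrophage list, Gdf15 overlapped between the diets. On that list Bmp3 was lower on HFD and Gdf3 stayed higher, both without overlap. The part of these cell types in the members' changes was not tested.

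Beyond the members, 67 other genes of the pathway are described, of which 51 could be tested, 3 rose and 2 fell (9.80%, beside 15.9% of all genes), with a median log2 fold change of -0.02. Genes that release or hold latent TGF-beta supplied 3 of the calls among 15 tested. Thbs1, whose product thrombospondin can activate latent TGF-beta, measured 50.6, 92.9 and 63.1 CPM under ND, against 258, 397 and 183 CPM under HFD (log2 fold change 2.02, SE 0.34, edgeR adjusted p = 0.0127). Nrros, which tethers latent TGF-beta on myeloid cells, measured 41.5, 41.6 and 35.9 CPM under ND, against 114, 69.8 and 168 CPM under HFD (1.56, SE 0.30, edgeR adjusted p = 0.0180). Pcsk5, a convertase that cleaves precursor proteins, measured 26.7, 33.7 and 34.2 CPM under ND, against 15.6, 23.5 and 13.6 CPM under HFD (-0.85, SE 0.22, edgeR adjusted p = 0.0446). In each of these 3 genes the diets did not overlap. The call was lost in 3 of the 6 fits without 1 library for Thbs1 (the first ND, the third ND and the first HFD library; adjusted p = 0.0532 to 0.0569), in 4 for Nrros (any ND and the first HFD library; 0.0632 to 0.0702) and in 5 for Pcsk5 (any but the second HFD library; 0.0649 to 0.153).

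Of the 11 common response genes tested, 1 rose and none fell. Ccn2, which encodes a matrix protein known as a TGF-beta target, measured 30.6, 23.1 and 23.1 CPM under ND, against 44.5, 33.6 and 51.7 CPM under HFD (log2 fold change 0.76, SE 0.19, edgeR adjusted p = 0.0406), a call that held in 1 of the 6 fits without 1 library, that without the second HFD library (otherwise adjusted p = 0.0683 to 0.143). The Id genes, standard targets of the BMP Smads that were singled out after their values were seen, did not pass: Id1 had a log2 fold change of -1.30 (edgeR adjusted p = 0.0655), Id3 -0.98 (0.0863), Id4 -0.89 (0.127) and Id2 -0.02 (0.979). By DESeq2, Id1 and Id3 passed, at adjusted p = 0.00652 and 0.0191, and without the second HFD library they passed by edgeR at 0.0419 and 0.0227.

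Of the 5 other co-receptors tested, 1 fell. Rgma, a BMP co-receptor held in the membrane, measured 56.0, 78.0 and 61.6 CPM under ND, against 36.5, 41.1 and 25.9 CPM under HFD. Its diets did not overlap (log2 fold change -0.92, SE 0.20, edgeR adjusted p = 0.0269; 0.0638 to 0.0899 without any 1 ND library or the first HFD library). The 10 signal regulators, the 7 other antagonists and the 3 further ligands tested gave no call.

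**Figure D5:**
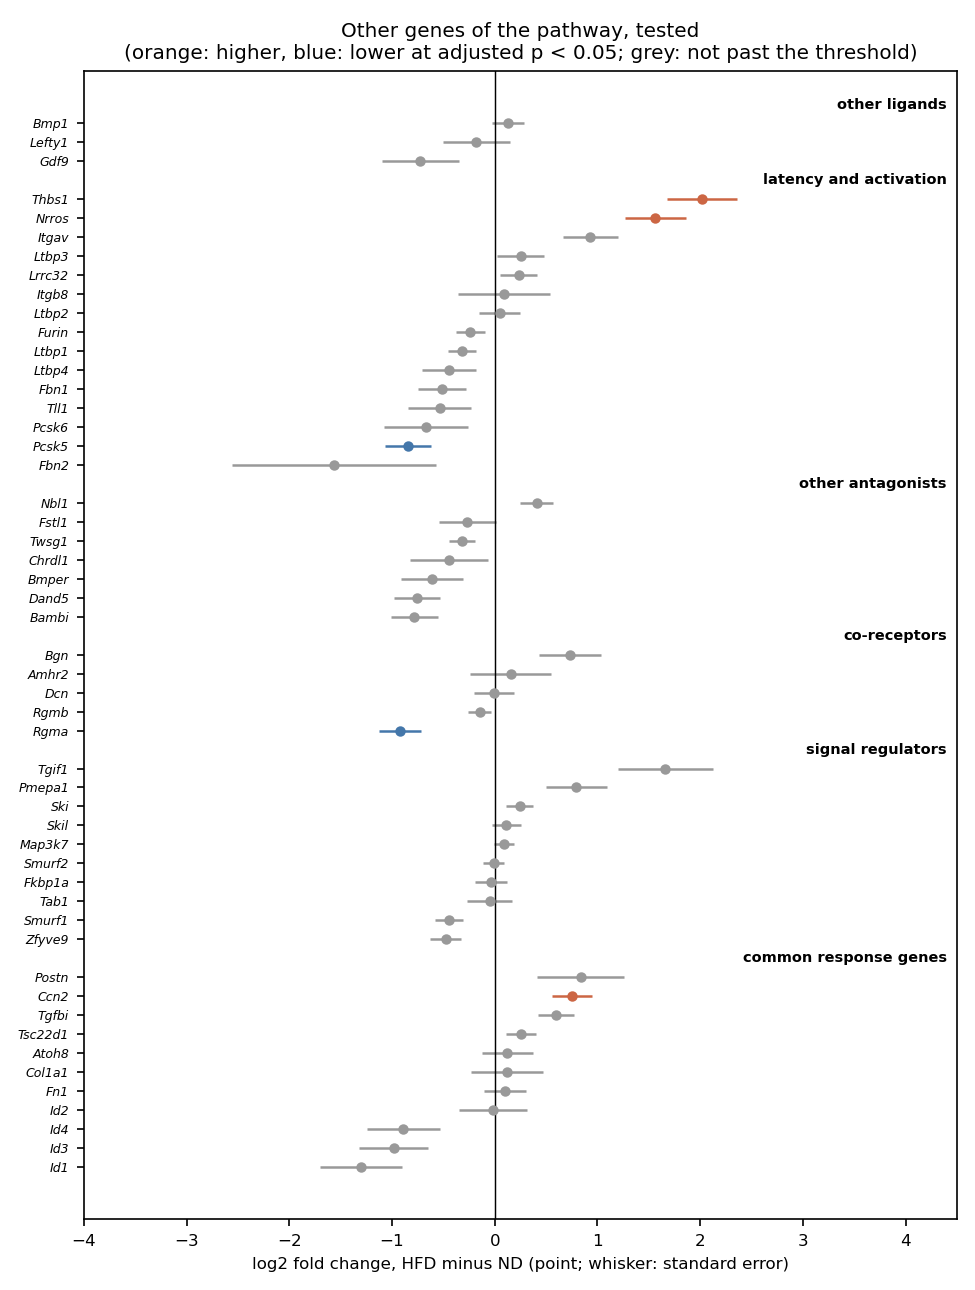
Log2 fold change (HFD minus ND, x axis) of the 51 tested pathway genes that are not members, by group; points are edgeR estimates, whiskers standard errors, and colour marks an adjusted p under 0.05. Thbs1 (2.02), Nrros (1.56) and Ccn2 (0.76) are coloured as higher, and Rgma (-0.92) and Pcsk5 (-0.85) as lower.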

How the data were processed

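Diet and replicate number came from the sample titles. Total RNA was isolated with TRIzol and made into NEBNext Ultra libraries. The authors deposited raw counts per gene and, for the same genes, FPKM values (counts per gene length and scaled library size). The paper's methods name TopHat and Cufflinks on GRCm38, while the submitters' processing notes name CASAVA 1.8, fastp, HISAT2 2.0.5, featureCounts 1.5.0-p3, DESeq2 1.20.0 and a human build. The identifiers are mouse Ensembl genes, and which chain made the files and whether counting used strand are not given in the sources used here. FPKM was checked to equal count over length times a library factor, which lay within 0.985% of the TMM-scaled size.

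The diets were compared on the counts with the quasi-likelihood F-test of edgeR 4.0.16 in R 4.3.3 (TMM, filterByExpr, robust=TRUE, no covariate), with Benjamini-Hochberg adjustment over all genes tested and 0.05 as the threshold. The standard error was derived from the F statistic. No exact permutation test was run, as 3 libraries against 3 allow no p under 0.1. Counting intervals are exact at 95%, on counts summed over a diet, and leave out the spread between libraries. Other runs used DESeq2 1.42.0, voom from limma 3.58.1, size factors of DESeq2 in edgeR, unscaled library sizes, every gene unfiltered, at least 10 counts in 3 libraries, robust=FALSE, the replicate block, each library left out, and limma on log2(FPKM + 1) or log2(FPKM + 0.1) for genes with 0.5 FPKM in 3 libraries, or unfiltered. The scripts were tested on simulated data.

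The members, the pathway and marker lists and these choices were made with earlier results of these data known. Full values were given for members past the threshold or with a change of 1 log2 unit or more, and, of the pathway list, for the 3 largest called changes in each direction. Proteins were not compared, and some genes of the pathway list are not reported here and are left out of its counts.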

Additional observations from a re-analysis of the deposited data

How the results depend on the processing

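Of the 43 tested members, 9 passed edgeR's test (5 higher, 4 lower). Among the settings that kept every library, these counts moved by more than 1.5 times under 4. Without the filter 1 member was lower, with the replicate block 1 was lower, on filtered log2(FPKM + 0.1) 2 were lower, and on unfiltered log2(FPKM + 1) 1 was called in all (1 higher, 0 lower). Of the pathway list, with 3 higher and 2 lower, DESeq2 called 6 higher and 7 lower, and unfiltered log2(FPKM + 1) 0 higher and 0 lower. Leaving out 1 library gave 1 to 11 members called, 1 to 7 higher and 0 to 6 lower, and 0 to 7 higher and 0 to 6 lower in the pathway list, with 474 to 3940 genes called over the whole table. These fits keep 2 libraries in an arm, and beyond that the cause was not tested. No called member changed direction under any alternative run. Among the members and the pathway genes named in the text, fold changes that changed sign when 1 library was left out belonged to genes that did not pass: Gdf5 (-0.36 to 0.36), Inha (-0.81 to 0.12), Bmpr2 (-0.0545 to 0.11), Eng (-0.0860 to 0.22), Fstl3 (-0.14 to 0.78), Smad1 (-0.22 to 0.0541), Smad6 (-0.0883 to 0.44) and Id2 (-0.32 to 0.20). The sources do not say that same-numbered libraries share a batch. Their deviations from the diet means correlated at -0.0858, -0.0556 and -0.0053, which with 3 libraries per diet cannot exclude one. The replicate block called 6 members, 5 higher and 1 lower, with 1886 genes in the whole table. Members under a few CPM in every library, such as Smad9 and Mstn, rest on few counts. Bmpr1b was under 1 CPM in every HFD library, and 79.1% of its ND counts lay in the third ND library.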
